A study of Mus musculus with 5 samples.

Results

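The genes examined here carry out the licensing of DNA replication origins and the work of the replication fork in mouse cells. They were chosen by name: 45 symbols of licensing factors, the replicative helicase and fork enzymes were matched to the Entrez identifiers of the count tables, and all 45 were found among 27179 genes. The mark measured was H3K14ac, acetylation of lysine 14 of histone H3. The assay was CUT&Tag. An antibody to the mark tethers Tn5 transposase, which inserts sequencing adapters into the DNA around it, so a count reflects the mark over a stretch of DNA and is not a measure of RNA. The cells were LSK cells, the lineage-negative, Sca-1-positive and Kit-positive marrow fraction in which blood stem cells and their early progeny are found. They were isolated by FACS from male C57BL/6 mice.

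The knockout group held 2 libraries of genotype Hbo1def/def; T/+ and the control group held 2 libraries of genotype Hbo1def/+; T/+. Mice of both groups had received poly(I:C), which switches on Mx1-cre, so the control cells had also been exposed to poly(I:C) and Cre and carried 1 deleted copy of Hbo1. Mx1-cre is switched on by interferon signalling and acts in many cell types besides blood stem cells, and the labels do not spell out what T/+ stands for or the age of the mice. A library made with an HBO1 antibody was not analysed here. The comparison asks where H3K14ac differs when HBO1, an acetyltransferase of this residue encoded by Kat7, is deleted in these cells.

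Replication starts at origins that are licensed before S phase. The origin recognition complex (ORC) binds DNA, CDC6 and CDT1 then load the MCM2-7 helicase around it, and geminin blocks CDT1 so that no origin is licensed again in the same cycle. In S phase the CDC7-DBF4 kinase, MCM10, CDC45 and the GINS complex turn the loaded helicase into a moving fork, which is copied by polymerases alpha, delta and epsilon with the PCNA clamp, its RFC loader and the RPA proteins. HBO1 owes its name to its binding of ORC1, described in human cells, and in human cells it has also been linked to CDT1 and to MCM loading. Many of these genes are known targets of E2F transcription factors, which act as cells leave quiescence, and blood stem cells are largely quiescent in adult marrow.

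The promoters of 6 of these genes are shown because they stand at both ends of the upstream results described next. They are the 250 bases before the annotated start, read 5′ to 3′ on the strand of the gene from the RefSeq promoter table of GRCm38.p6, and they lie inside the upstream window that the authors counted. Pold1 (chr7:44548816-44549065, minus strand), Orc1 (chr4:108579204-108579453, plus strand), Mcm7 (chr5:138171884-138172133, minus strand) and Pcna (chr2:132253181-132253430, minus strand) had the smallest upstream p-values among the genes in the promoter table. Pold2 (chr11:5878257-5878506, minus strand) and Mcm3 (chr1:20820313-20820562, minus strand) had the largest. Capitals mark E2F-type strings and CCAAT boxes on either strand.
Pold1: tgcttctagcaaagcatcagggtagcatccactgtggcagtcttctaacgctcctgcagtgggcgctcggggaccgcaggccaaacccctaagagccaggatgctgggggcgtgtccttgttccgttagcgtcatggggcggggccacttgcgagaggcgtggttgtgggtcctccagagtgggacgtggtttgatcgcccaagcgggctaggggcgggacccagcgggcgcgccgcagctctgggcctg
Orc1: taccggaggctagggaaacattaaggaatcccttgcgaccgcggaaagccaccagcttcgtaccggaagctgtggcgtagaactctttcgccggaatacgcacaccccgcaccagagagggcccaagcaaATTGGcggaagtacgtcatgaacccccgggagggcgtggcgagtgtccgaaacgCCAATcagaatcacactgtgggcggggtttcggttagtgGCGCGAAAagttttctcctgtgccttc
Mcm7: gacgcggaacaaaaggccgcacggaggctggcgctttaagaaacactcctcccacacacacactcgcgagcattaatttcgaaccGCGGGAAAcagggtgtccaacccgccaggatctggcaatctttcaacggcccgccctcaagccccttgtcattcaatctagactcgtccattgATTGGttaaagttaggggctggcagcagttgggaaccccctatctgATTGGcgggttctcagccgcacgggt
Pcna: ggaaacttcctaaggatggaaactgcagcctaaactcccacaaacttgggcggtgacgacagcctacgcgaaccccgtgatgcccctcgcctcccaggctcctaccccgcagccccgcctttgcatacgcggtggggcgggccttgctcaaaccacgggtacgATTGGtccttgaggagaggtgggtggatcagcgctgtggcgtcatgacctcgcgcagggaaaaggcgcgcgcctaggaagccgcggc
Pold2: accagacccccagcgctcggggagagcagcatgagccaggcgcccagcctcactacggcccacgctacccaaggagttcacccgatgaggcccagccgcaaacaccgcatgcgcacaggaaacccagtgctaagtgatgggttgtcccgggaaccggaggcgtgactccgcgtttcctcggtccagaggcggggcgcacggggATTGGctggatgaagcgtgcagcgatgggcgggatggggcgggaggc
Mcm3: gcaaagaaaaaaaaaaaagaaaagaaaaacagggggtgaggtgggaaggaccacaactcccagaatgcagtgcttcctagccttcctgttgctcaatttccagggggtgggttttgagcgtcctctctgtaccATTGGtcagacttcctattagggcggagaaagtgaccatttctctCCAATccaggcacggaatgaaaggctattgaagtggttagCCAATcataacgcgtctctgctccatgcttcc

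The strings searched were TTTCCCGC, TTTCGCGC, TTTGCCGC and TTTGGCGC for E2F, CCAAT for the CCAAT box, GGGCGG for the GC box and TTTGAA for the cell cycle homology region, each on both strands. The promoter table held 46 promoters of 37 of the 45 genes. An E2F-type string was present in 19.6% of these 46 promoters, against 1.86% of all 32851 promoters and 4.26% of the 11153 CpG-rich promoters of the table. A CCAAT box was present in 52.2% of them, against 33.8% of all promoters and 33.4% of the CpG-rich ones. The GC box was found in 65.2%, against 32.7% of all and 67.5% of the CpG-rich promoters, and the cell cycle homology string in 13%, against 16% of all and 8.69% of the CpG-rich promoters. These are matches of letters in a short window, and they do not show that a factor binds. Of the replication genes tested upstream, 5 of 9 with an E2F-type string were higher in knockouts and 17 of 27 without one were. Of all genes tested upstream 24% were higher, as were 42.7% of those with a CpG-rich start.

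Gene body counts summed to 4723549 and 6031189 in the knockout libraries, against 12386891 and 10572534 in the controls. Upstream counts lay between 869859 and 1164409 per library and downstream counts between 677213 and 1260351, with the knockouts at the low end of each range. Over the 45 genes the mean count per library had a median of 29.5 upstream, 102 over gene bodies and 24.2 downstream, so single genes were measured coarsely outside gene bodies. Kat7, the deleted gene, had 88.2 and 39.1 counts-per-million (CPM) over its body in knockouts, against 30.7 and 30.1 CPM in controls (log2 fold 1.06, edgeR adjusted p = 0.00668). Upstream of Kat7 the values went the other way without passing, with 19.3 and 24.4 CPM in knockouts, against 45.1 and 40.6 CPM in controls (-0.97, edgeR adjusted p = 0.0872), and downstream the log2 fold was -0.46. The position of the deleted part is not given in the sources used here, and a mark counted over a gene does not check its deletion. All 9 LSK markers looked at, Kit, Ly6a, Cd34, Flt3, Gata2, Runx1, Meis1, Hlf and Mecom, had counts in every library and region class. Their gene bodies lay at a median percentile of 84.6 in knockouts and 77.5 in controls of the density of all genes. The granulocyte and monocyte markers lay higher in both groups, at 91.4 and 87.1, and the T cell markers at 69.3 and 78.2. The B cell markers with counts lay at 53.1 and 74.2 and the erythroid ones with counts at 69.5 and 22.1. The stromal and endothelial markers lay at 53.0 and 71.0. This density therefore does not set the LSK markers apart. The gene bodies of Hba-a1, Hbb-bs and Ms4a1, markers of red cells and B cells, were at 0 in all 4 libraries, but their upstream windows held 31 to 109 counts per library and the body of Ms4a1 is wholly shared with that of another gene, so these zeros say nothing of the cells present. Other markers of blood lineages carried counts in both groups. Summed over their upstream windows, the 9 LSK markers held 917 and 661 CPM in knockouts, against 459 and 408 CPM in controls. Of the 9, 3 were called higher, where 24% of all genes tested were. Both knockouts lay above both controls at 5 of the 9 and below both at 2. Flt3 and Gata2 had means of 25.2 and 24.5 CPM per kb upstream in knockouts, against 5.26 and 8.64 in controls. Ly6a and Hlf went the other way, at 13.4 and 6.30 in knockouts, against 18.3 and 8.81. Mecom had 5.03, against 4.93. The 6 granulocyte and monocyte markers held 632 and 475 CPM in knockouts, against 572 and 498 CPM in controls, the 5 B cell markers 145 and 191 CPM, against 259 and 220.4 CPM, and the 6 stromal and endothelial markers 199 and 255 CPM, against 411 and 357 CPM. The 5 T cell markers held 168 and 248 CPM in knockouts, against 299 and 273 CPM in controls, and the 5 erythroid markers 209 and 228 CPM, against 287 and 227 CPM. Over gene bodies 2 of 4 tested B cell markers and 3 of 6 stromal and endothelial markers were called lower, where 15.2% of all genes were. Lower calls went with gene length: 608 of 7316 genes under 10 kb, 725 of 6745 of 10 to 30 kb and 1927 of 7332 over 30 kb. Ebf1 and Pax5 had means of 0.768 and 0.698 CPM per kb of gene body in knockouts, against 1.65 and 1.28 in controls. Upstream they had 3.26 and 3.13 in knockouts, against 2.86 and 2.02. The part of gene length in the marker calls was not tested. Downstream the sum of the T cell markers went the other way from upstream, with 597 and 336 CPM in knockouts, against 203 and 207 CPM in controls. Cd3g, Cd3d and Cd4 had means of 33.6, 23.9 and 11.0 CPM per kb downstream in knockouts, against 2.77, 4.66 and 6.32 in controls. Cd3e and Cd8a had 10.2 and 14.6, against 10.5 and 16.8. Upstream, Cd3g and Cd3d were also higher in knockouts, at 9.56 and 8.05, against 6.17 and 6.25. Downstream 2 of the 5 were called higher, where 10.8% of all genes were. The B cell markers downstream held 380.4 and 265 CPM in knockouts, against 207 and 219 CPM in controls. Among them Cd79a had a mean of 36.1 CPM per kb in knockouts, against 6.47 in controls, and Pax5 had 8.93, against 16.7. The part of these marker levels in the results was not tested. In bulk samples fewer cells of a type and less signal per cell cannot be told apart. The labels do not state whether a separate mouse stands behind each library. A p-value here therefore reflects how far these samples scatter, and that scatter may be technical. A spike-in is not mentioned either, and each fold is relative to TMM scaling of the libraries, under which the median log2 fold of all genes tested was -0.09 upstream, 0.02 over gene bodies and -0.03 downstream. Scaling on olfactory and vomeronasal receptor genes gave medians of 0.83, 0.67 and 0.27 in the same order of regions.

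In the 5 kb upstream of the start, 23 of the 45 replication genes (51.1%) were higher in knockouts and 0 were lower by edgeR's quasi-likelihood test at an adjusted p under 0.05; DESeq2's Wald test, by which 6.17% of all genes were lower, and an unadjusted p under 0.05 also gave 0 lower. Of all 23200 genes tested, 24% were higher and 14.3% were lower. Another 20 replication genes did not pass, and Gins1 and Prim1 were too low to test. Pold1, Fen1, Pcna, Orc1, Mcm7 and Cdt1 rose most, with log2 folds of 4.01, 3.12, 2.94, 2.91, 2.85 and 2.75. Of the 23, Pold1, Mcm7 and Orc6 passed the filter on low counts only through the knockouts, so their calls add no support. In a fit with no filter, which covers all 45, the median log2 fold was 1.22, beside -0.097 for all genes. Both knockouts lay above both controls at 38 of the 45 and below both at 0, while 37.8% and 39.9% of all genes tested separated in these directions.

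Genes with a CpG-rich start, here an observed over expected CpG ratio of at least 0.6 within 500 bases of the start, were more often higher than the rest. Of all tested genes with such a start 42.7% were higher and 3.39% lower, beside 8.62% and 23.6% of genes without one. The start was CpG-rich in 40 of the 45 replication genes, and 20 of these 40 were higher, 1 having not been tested. The part of CpG content in the result was not tested. The upstream window also held the start of another gene at 18 of the 45; 46.8% of all tested windows with another start were higher, against 19.6% of those without. Of 26 replication genes tested whose window held no other start, 16 were higher.

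The first knockout library had the higher values upstream. Its CPM was above that of the second knockout at 40 of the 45 genes and at 22 of the 23 called. The median over the 23 called genes was 90.9 and 53.2 CPM in knockouts, against 13.0 and 15.7 CPM in controls, so each knockout stood above both controls. With 1 library left out, the lone library of an arm is assumed to vary like the others, and few calls remained. The test then called 0 replication genes without knockout replicate 1, where 18 had an unadjusted p under 0.05, and 0% of all genes were higher. It called 9 without knockout replicate 2, beside 9.54% of all genes. It called 0 without control replicate 1, where 12 had an unadjusted p under 0.05, beside 0.298% of all genes, and 3 without control replicate 2, beside 2.71%. No share of all genes at an unadjusted p under 0.05 is given here, so the counts at that threshold add no support. The fold of the 23 called genes stayed positive in each of these fits, the lowest being 0.82 for Rrm1 without knockout replicate 1. Scaling by totals pooled over the 3 region classes called 35, beside 33.1% of all genes. Of the 23 calls, those of Orc4, Cdc6, Mcm10, Rfc1 and Rrm1 were lost both with library totals and by DESeq2's Wald test, and that of Mcm5 with library totals. With the replicate number as a block these calls were lost too, as were those of Pola2, Pole2 and Rrm2.

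**Figure D1:**
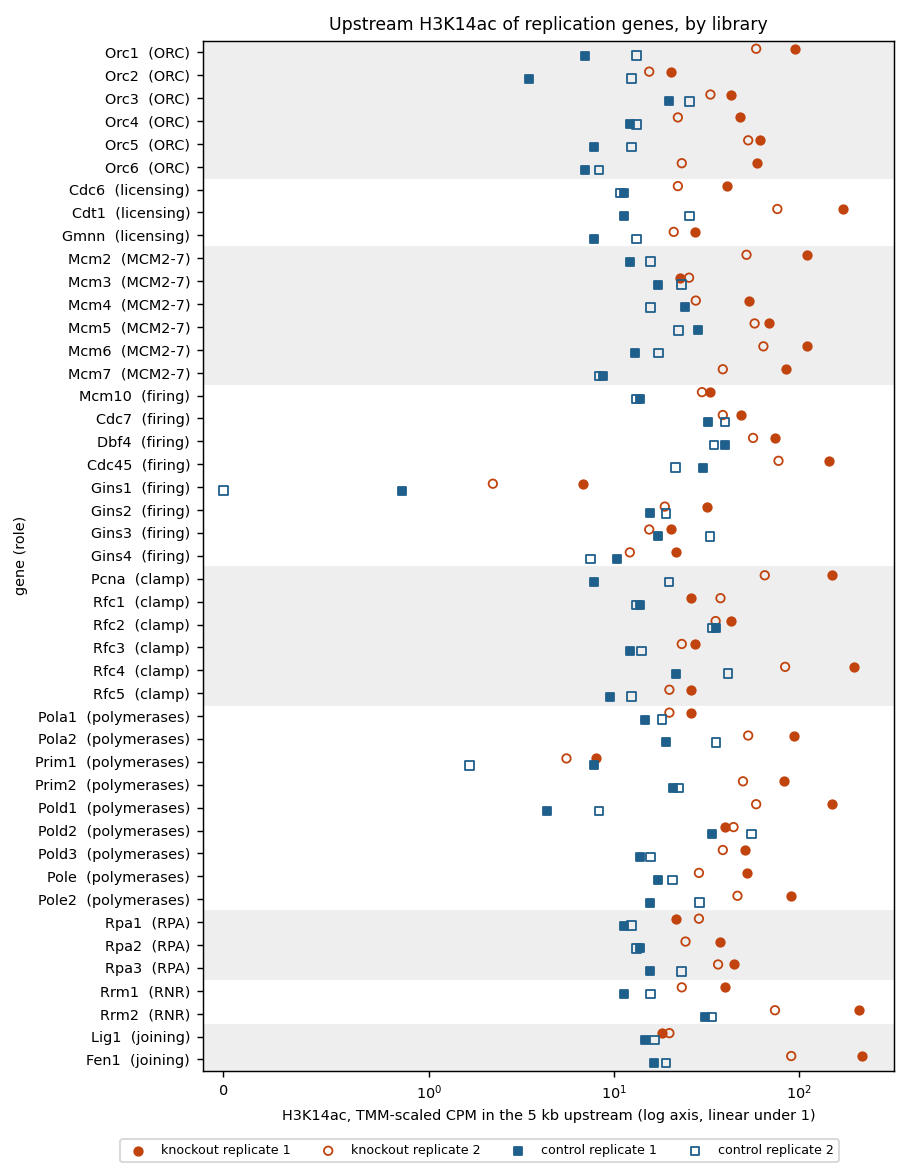
H3K14ac in the 5 kb upstream of 45 replication genes, in TMM-scaled counts-per-million on a log axis that is linear under 1, by library (filled and open circles, knockout replicates 1 and 2; filled and open squares, control replicates 1 and 2), with genes grouped by role. Both knockouts lay above both controls at 38 of the 45 genes, and the first knockout lay above the second at 40.

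ORC, the complex that marks origins, had 4 of its 6 genes higher upstream: Orc1, Orc4, Orc5 and Orc6. Beside this role and those that follow, 24% of all genes tested were higher upstream. Orc1, which encodes the subunit that HBO1 was named for, had 95.5 and 58.7 CPM in knockouts, against 6.94 and 13.3 CPM in controls (log2 fold 2.91 ± 0.51 SE, edgeR adjusted p = 8.47e-07). The Orc5 window had 61.4 and 53.2 CPM in knockouts, against 7.81 and 12.4 CPM in controls (2.48 ± 0.50, edgeR adjusted p = 2.01e-05). In both, the lower knockout was more than 4 times the higher control. The windows of Orc1, Orc5 and Orc6 also hold the starts of Prpf38a, 6030443J06Rik and Vps35. Orc2 and Orc3 did not pass, with log2 folds of 1.15 and 0.74, although both knockouts lay above both controls at each.

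Of the licensing factors, Cdt1 and Cdc6 rose and Gmnn, which encodes geminin, did not pass. Cdt1 had 174 and 76.4 CPM in knockouts, against 11.3 and 25.7 CPM in controls (log2 fold 2.75 ± 0.56, edgeR adjusted p = 2.12e-05). Cdc6 had 40.9 and 22.2 CPM in knockouts, against 11.3 and 10.8 CPM in controls (1.504 ± 0.52, edgeR adjusted p = 0.015); its adjusted p was 0.0617 with library totals, 0.0616 by DESeq2's Wald test and 0.063 with the replicate number as a block. Neither window holds another start, and the groups were apart at both genes. Gmnn had 27.3 and 21.1 CPM in knockouts, against 7.81 and 13.3 CPM in controls, with an edgeR adjusted p of 0.0642.

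Among the 6 MCM2-7 helicase genes, Mcm2, Mcm5, Mcm6 and Mcm7 rose. Mcm7 had 85.2 and 38.8 CPM in knockouts, against 8.68 and 8.29 CPM in controls (log2 fold 2.85 ± 0.51, edgeR adjusted p = 1.54e-06). Mcm2 had 110.2 and 52.1 CPM in knockouts, against 12.2 and 15.7 CPM in controls (2.53 ± 0.50, edgeR adjusted p = 1.48e-05). Of the Mcm2 window 69.4% is shared with the window of another gene, and it also holds the start of Tpra1. The Mcm7 window also holds the start of Ap4m1. The subunits of this ring did not move alike in size. Mcm3 had 22.7 and 25.5 CPM in knockouts, against 17.4 and 23.2 CPM in controls, with overlapping groups and a log2 fold of 0.25 ± 0.50, while Mcm4 had a log2 fold of 1.01 ± 0.47 (edgeR adjusted p = 0.0742). Differences of fold between subunits were not tested.

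Of the 8 genes that fire origins and activate the helicase, Cdc45 and Mcm10 rose and 5 did not pass. Cdc45, part of the active helicase, had 145 and 77.6 CPM in knockouts, against 30.4 and 21.5 CPM in controls (log2 fold 2.10 ± 0.53, edgeR adjusted p = 0.000736). The Cdc45 window also holds the start of Ufd1. Mcm10, which helps to start the fork, had 33.0 and 29.9 CPM in knockouts, against 13.9 and 13.3 CPM in controls (1.20 ± 0.51, edgeR adjusted p = 0.0468). The Mcm10 call was lost with library totals (adjusted p = 0.129), DESeq2's Wald test (0.112), a correction for the GC content of the windows (0.0706) and the replicate block (0.115), with log2 folds of 1.02 to 1.29. The kinase genes Cdc7 and Dbf4 were among the densest upstream windows of these genes in controls, at 7.19 and 7.47 CPM per kb. Their log2 folds were 0.28 and 0.80. The GINS genes did not share a direction: Gins2 and Gins4 had log2 folds of 0.54 and 0.91 and Gins3 one of -0.49, which turned to 0.046 with pooled totals and 0.44 with receptor scaling; none passed the test. Gins1 had 6 and 2 counts in knockouts, against 1 and 0 in controls, in a window of which 97.2% is shared with that of another gene.

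Pcna, Rfc1 and Rfc4 rose among the 6 genes of the clamp and its loader. Pcna, which encodes the sliding clamp, had 150.0 and 65.4 CPM in knockouts, against 7.81 and 19.9 CPM in controls (log2 fold 2.94 ± 0.54, edgeR adjusted p = 2.66e-06). Rfc4, a loader subunit, had 199 and 84.2 CPM in knockouts, against 21.7 and 41.4 CPM in controls (2.16 ± 0.57, edgeR adjusted p = 0.00131). Rfc2 stood apart within the loader, with 43.2 and 35.5 CPM in knockouts, against 35.6 and 34.0 CPM in controls, and groups that overlapped. The polymerase and primase genes called were Pola2, Prim2, Pold1, Pold3 and Pole2. Pold1, the catalytic subunit of polymerase delta, had 150.0 and 58.7 CPM in knockouts, against 4.34 and 8.29 CPM in controls (4.01 ± 0.58, edgeR adjusted p = 1.81e-09). Prim2, the large primase subunit, had 83.0 and 49.9 CPM in knockouts, against 20.8 and 22.4 CPM in controls (1.61 ± 0.47, edgeR adjusted p = 0.00389). The Prim2 window also holds the start of 1700001G17Rik. Pold2, an accessory subunit of the same polymerase as Pold1, had 39.8 and 44.3 CPM in knockouts, against 33.8 and 55.5 CPM in controls, so the knockouts lay between the controls.

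Both ribonucleotide reductase genes rose. Rrm2, the small subunit of the enzyme that makes deoxyribonucleotides, had 213 and 74.2 CPM in knockouts, against 31.2 and 34.0 CPM in controls (log2 fold 2.13 ± 0.57, edgeR adjusted p = 0.00161). The Rrm2 call was lost with the replicate block (edgeR adjusted p = 0.0578). Rrm1, the large subunit, had 39.8 and 23.3 CPM in knockouts, against 11.3 and 15.7 CPM in controls (1.21 ± 0.51, edgeR adjusted p = 0.0457), and the Rrm1 call was lost with library totals (adjusted p = 0.141), DESeq2's Wald test (0.12), the GC correction (0.0582) and the replicate block (0.125). Fen1, the nuclease that trims the flaps of Okazaki fragments, had 220.5 and 90.9 CPM in knockouts, against 16.5 and 19.1 CPM in controls (3.12 ± 0.60, edgeR adjusted p = 8.25e-06). Lig1, the ligase that seals these fragments, had 18.2 and 19.9 CPM in knockouts, against 14.8 and 16.6 CPM in controls and did not pass. Of the 3 RPA genes, whose proteins coat single-stranded DNA, 0 passed by edgeR or by DESeq2's Wald test, with edgeR log2 folds of 1.05 to 1.18. Rpa2 came nearest, with 37.5 and 24.4 CPM in knockouts, against 13.9 and 13.3 CPM in controls (1.18 ± 0.51, edgeR adjusted p = 0.0518).

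Per kb, the order of the upstream windows in controls ran from Pold2 at 8.94 CPM per kb, through Dbf4 at 7.47, Cdc7 at 7.19 and Rfc2 at 6.96, down to Pold1 at 1.26, Prim1 at 0.947 and Gins1 at 0.0868. Pold2 in controls spread from 33.8 to 55.5 CPM, and overlapped the control values of its neighbours Dbf4, Cdc7 and Rfc2. None of those 4 densest windows was called higher. The next in the order, Rrm2, Rfc4, Pola2 and Cdc45, at 6.52, 6.31, 5.47 and 5.19 CPM per kb, were each called higher. The control value also enters the fold, so this order and the calls are not independent. In knockouts the densest windows were Fen1, Rrm2, Rfc4 and Cdt1, at 31.1, 28.7, 28.3 and 25.0 CPM per kb. The genes Orc6, Mcm7 and Pold1 passed the filter on low counts through the knockouts, since both controls lay under it. Their upstream calls therefore add no support.

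**Figure D2:**
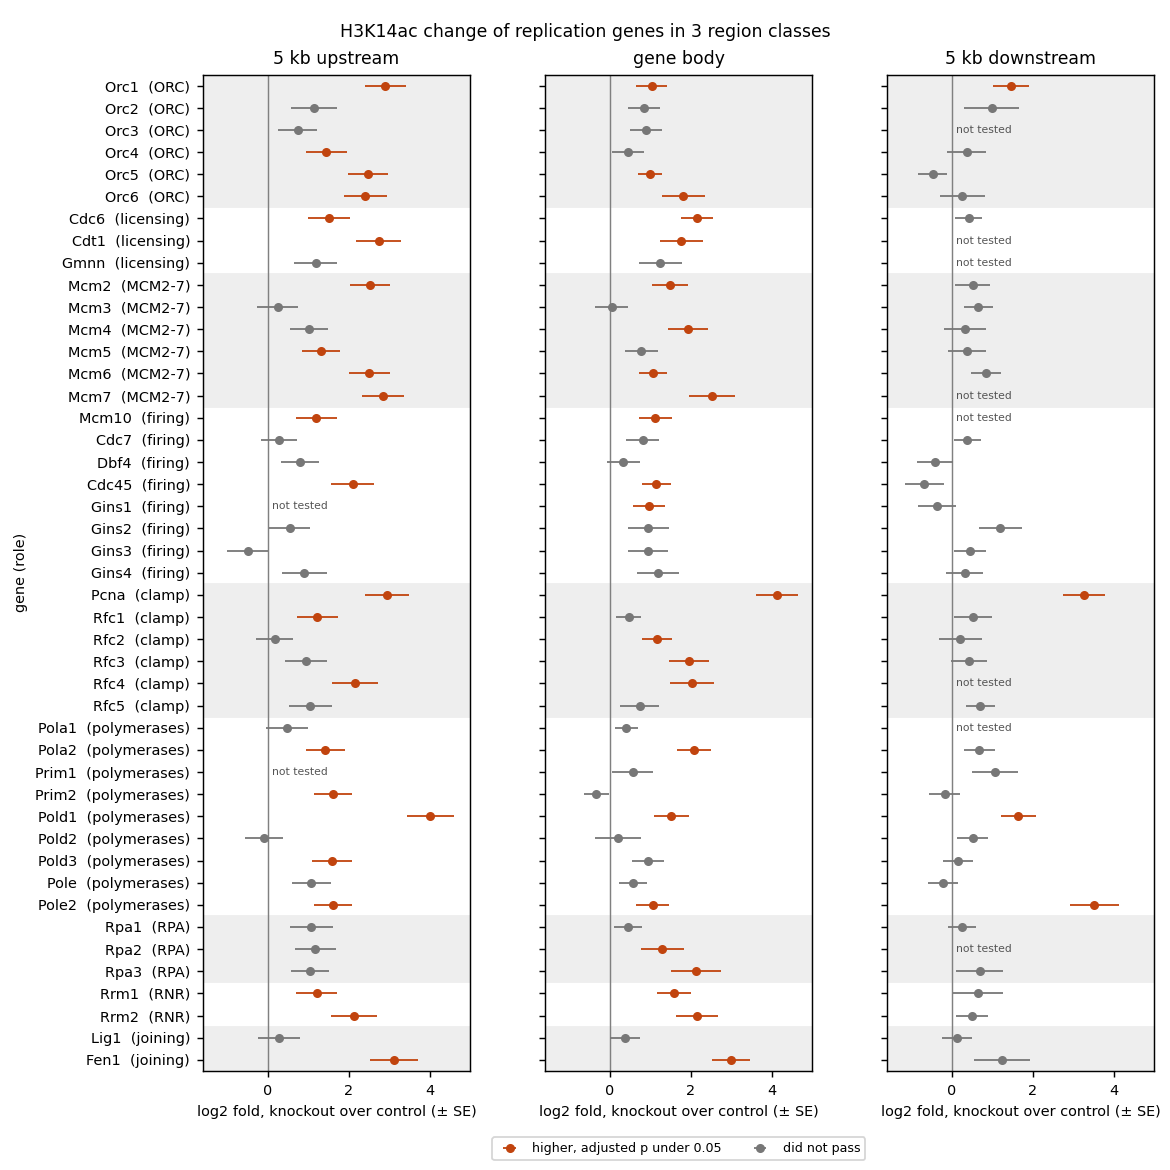
Log2 fold of H3K14ac, knockout over control, with its standard error, for 45 replication genes in the 5 kb upstream, the gene body and the 5 kb downstream, from edgeR's quasi-likelihood fits (orange, higher at an adjusted p under 0.05; grey, did not pass). Upstream 23 genes were higher, over gene bodies 24 and downstream 4, and none was lower.

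Over gene bodies 24 of the 45 genes (53.3%) were higher and 0 were lower by edgeR, with 0 lower at an unadjusted p under 0.05 or by DESeq2's Wald test, by which 13.5% of all genes were lower. Of all 21393 genes tested, 23.1% were higher and 15.2% were lower. Pcna and Fen1 rose most, by log2 folds of 4.14 and 2.99. The median log2 fold was 1.06 over the 45 genes and 0.02 over all genes. Both knockouts lay above both controls at 43 of the 45 and, with TMM scaling, below both at Prim2; of all genes tested 40.6% and 39.4% separated in these directions. Among tested genes with a CpG-rich start 35.9% were higher and 8.89% lower, and of the 40 such replication genes 22 were higher. The upstream and gene body tables come from the same 4 libraries, and their values are given side by side.

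Here too the first knockout was the higher of the pair, at 39 of the 45 genes and at each of the 24 called. The edgeR test called 10 replication genes without knockout replicate 1 (11.5% of all genes were higher), 31 without knockout replicate 2 (29.9%), 4 without control replicate 1 (6.62%) and 8 without control replicate 2 (12.7%). The lowest fold of the 24 called genes was 0.67 without knockout replicate 1 (Gins1) and 0.67 without control replicate 1 (Orc1). Mcm7 and Rpa3 passed the filter through the knockouts, with both controls under it, so their gene body calls add no support.

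By role, the gene body counts were 3 of 6 higher for ORC (Orc1, Orc5 and Orc6), 2 of 3 for the licensing factors (Cdc6 and Cdt1), 4 of 6 for MCM2-7 (Mcm2, Mcm4, Mcm6 and Mcm7) and 3 of 8 for origin firing (Mcm10, Cdc45 and Gins1). They were 4 of 6 for the clamp and loader (Pcna, Rfc2, Rfc3 and Rfc4), 3 of 9 for the polymerases and primase (Pola2, Pold1 and Pole2), 2 of 3 for RPA (Rpa2 and Rpa3), 2 of 2 for ribonucleotide reductase and 1 of 2 for fragment joining (Fen1). Mcm4, Gins1, Rfc2, Rfc3, Rpa2 and Rpa3 were called over their bodies and not upstream, where Gins1 was not tested, and Orc4, Mcm5, Rfc1, Prim2 and Pold3 upstream and not over their bodies. Beside these counts by role, 23.1% of all genes tested were higher over gene bodies. Whether the change differed between regions was not tested for single genes.

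Per kb of gene body, Pcna had 9.73 and 2.95 CPM in knockouts, against 0.304 and 0.407 CPM in controls (log2 fold 4.14 ± 0.52, edgeR adjusted p = 2.7e-09). Fen1 had 9.01 and 2.39 CPM per kb in knockouts, against 0.658 and 0.762 in controls (2.99 ± 0.46, edgeR adjusted p = 5.58e-07). Rrm2 had 3.11 and 1.24 CPM per kb in knockouts, against 0.436 and 0.537 in controls (2.15 ± 0.52, edgeR adjusted p = 0.000809). At these genes the knockouts differed from each other by more than the controls did, and still did not meet them.

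Cdc6 had 2.76 and 1.18 CPM per kb in knockouts, against 0.332 and 0.549 in controls (log2 fold 2.16 ± 0.41, edgeR adjusted p = 2.48e-05). Cdt1 had 2.21 and 1.05 CPM per kb in knockouts, against 0.502 and 0.445 in controls (1.77 ± 0.53, edgeR adjusted p = 0.00731). The Cdt1 body call was lost with the GC correction (log2 fold 1.07, adjusted p = 0.082) and the replicate block (adjusted p = 0.0734), and that of Cdc6 was kept in both. Orc6 had 1.30 and 0.690 CPM per kb in knockouts, against 0.228 and 0.332 in controls (1.82 ± 0.53, edgeR adjusted p = 0.00569), and Orc5 had 1.08 and 0.836, against 0.466 and 0.498 (0.99 ± 0.30, edgeR adjusted p = 0.00809). Both of these calls were lost with the replicate block (edgeR adjusted p = 0.0622 for Orc6 and 0.0655 for Orc5).

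Mcm7 had 1.20 and 0.717 CPM per kb in knockouts, against 0.190 and 0.136 in controls, the lowest control density of the 45 gene bodies (log2 fold 2.53 ± 0.58, edgeR adjusted p = 0.000424). Mcm4 had 1.55 and 0.574 CPM per kb in knockouts, against 0.293 and 0.257 in controls (1.94 ± 0.49, edgeR adjusted p = 0.00155). Mcm3 did not pass here either, with 0.817 and 0.702 CPM per kb in knockouts, against 0.706 and 0.765 in controls, overlapping groups and a log2 fold of 0.04 ± 0.41. Cdc45 had 1.33 and 0.733 CPM per kb in knockouts, against 0.414 and 0.515 in controls, a log2 fold of 1.15 ± 0.36, and Mcm10 one of 1.13 ± 0.41. The body calls of both were lost with the replicate block (edgeR adjusted p = 0.0893 for Cdc45 and 0.142 for Mcm10). That of Mcm10 was also lost with receptor scaling (edgeR adjusted p = 0.0532).

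Rfc3 had 1.87 and 1.12 CPM per kb in knockouts, against 0.412 and 0.354 in controls (log2 fold 1.96 ± 0.50, edgeR adjusted p = 0.00159). Pola2, the regulatory subunit of polymerase alpha, had 1.58 and 0.693 in knockouts, against 0.200 and 0.335 in controls (2.08 ± 0.42, edgeR adjusted p = 7.81e-05). Pold1 had a smaller fold over its body than upstream, 1.52 ± 0.44 beside 4.01 ± 0.58. With the GC correction the Pold1 folds were 3.27 upstream, 0.71 over the body (adjusted p = 0.168) and 0.88 downstream (adjusted p = 0.153), so the body and downstream calls were lost. The Pold1 body call was also lost with the replicate block (edgeR adjusted p = 0.0815). The RPA genes called rested on few counts: Rpa3 had 27 and 14 in knockouts, against 8 and 8 in controls, and Rpa2 had 40 and 31 in knockouts, against 22 and 27 in controls. By DESeq2's Wald test neither passed, with adjusted p = 0.0506 for Rpa3 and 0.101 for Rpa2. Rrm1 rose by a log2 fold of 1.58 ± 0.42, and Lig1 had one of 0.37 ± 0.36 that did not pass.

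**Figure D3:**
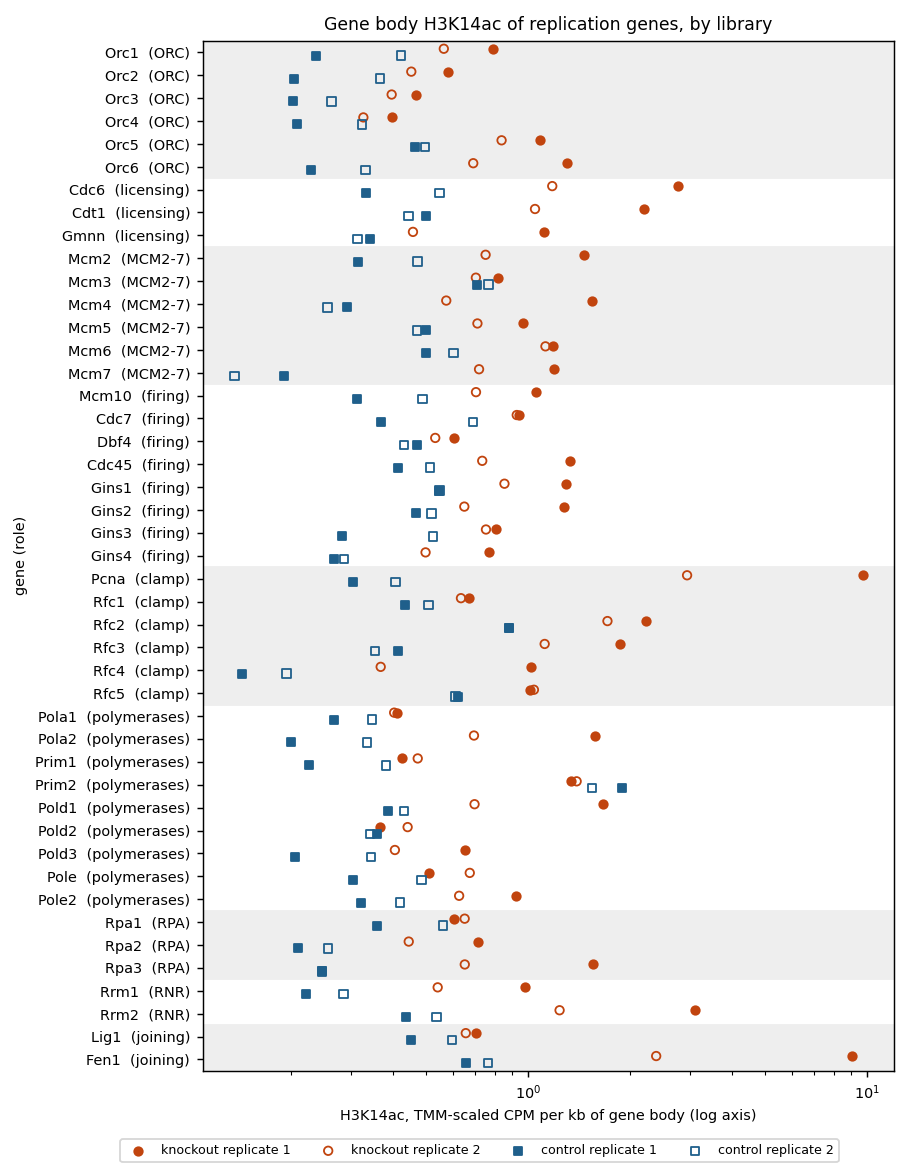
H3K14ac per kb of gene body of 45 replication genes, in TMM-scaled counts-per-million per kb on a log axis, by library (filled and open circles, knockout replicates 1 and 2; filled and open squares, control replicates 1 and 2), with genes grouped by role. Both knockouts lay above both controls at 43 of the 45 genes; at Mcm3 the groups overlapped.

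The fold over gene bodies was larger in shorter genes. Across the 45 genes Spearman's rho of gene length and log2 fold was -0.60 and Pearson's r with log2 length -0.64, as a description over genes that share the same 4 libraries; over all 21393 genes tested rho was -0.19 and r was -0.25. Of the genes under 10 kb 8 of 11 were higher, of those of 10 to 30 kb 13 of 21, and of those over 30 kb 3 of 13. Over all genes tested 32.2%, 27% and 10.4% of these length classes were higher. Pcna is 3.895 kb long and Fen1 4.805 kb by the deposited lengths, and Prim2 and Pola1, at 216 kb and 327 kb, are the longest of the 45. Prim2 had 1.34 and 1.39 CPM per kb in knockouts, against 1.89 and 1.55 in controls, the highest control density of the 45 (log2 fold -0.33 ± 0.31, not passed, and 0.030 with library totals or 0.34 with receptor scaling). Its upstream window was called higher. Pold2, a short gene of 6.077 kb, had a log2 fold of 0.21 ± 0.56 that did not pass. It rests on 12 and 18 counts in knockouts, against 22 and 21 in controls. Gins2 and Rfc5, also under 10 kb, did not pass either, with log2 folds of 0.95 and 0.74 (edgeR adjusted p = 0.13 and 0.205). Whether the folds of these genes differ from those of other short genes was not tested. After Prim2, the densest gene bodies in controls were Rfc2 at 0.879 and Mcm3 at 0.736 CPM per kb, which did not overlap in their control values, and Rfc4 at 0.169 lay just above Mcm7 at 0.163, with control values that overlapped.

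**Figure D4:**
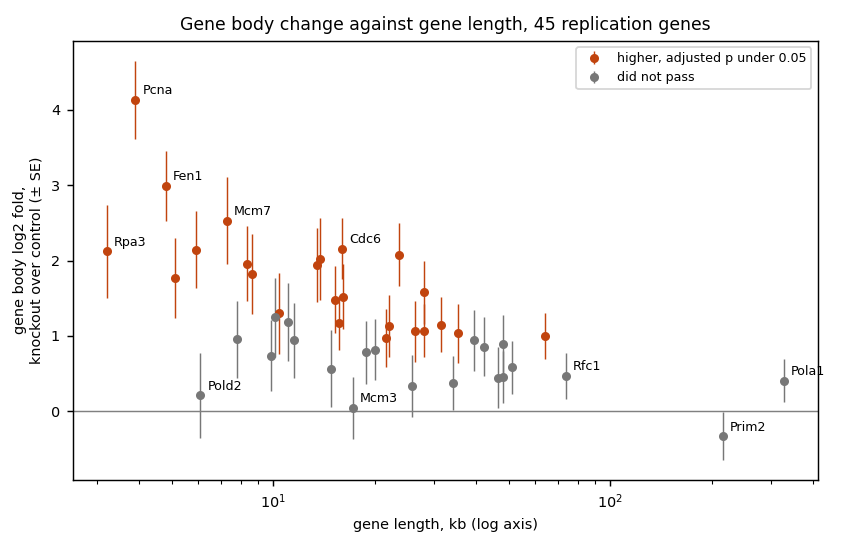
Log2 fold of gene body H3K14ac, knockout over control, with its standard error, against gene length in kb on a log axis for 45 replication genes (orange, higher at an edgeR adjusted p under 0.05; grey, did not pass). Folds were larger in shorter genes, from 4.14 at Pcna (3.895 kb) to -0.33 at Prim2 (216 kb). The Prim2 fold was 0.030 with library totals and 0.34 with receptor scaling. Pold2 (6.077 kb) had a log2 fold of 0.21 and Mcm3 (17.2 kb) one of 0.04.

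In the 5 kb downstream of the gene end 4 of the 45 genes (8.89%), Orc1, Pcna, Pold1 and Pole2, were higher and 0 were lower by edgeR, with 0 lower at an unadjusted p under 0.05 or by DESeq2's Wald test, by which 0.25% of all genes were lower. Of all 21566 genes tested 10.8% were higher and 2.29% were lower, so the share of replication genes called was close to the background. Both knockouts lay above both controls at 22 of the 45 and below both at 4 (Orc5, Mcm10, Cdc45 and Pole), beside 29.9% and 32.7% of all genes tested. Pole turned to a log2 fold of 0.10 with receptor scaling. The counts of the 45 include genes too low to test: Mcm10 below, and Rfc4 and Rpa2 above. Mcm10 had 0 and 0 counts in knockouts, against 1 and 2 in controls, and Rfc4 had 6 and 7, against 1 and 0. The median log2 fold in a fit with no filter was 0.43 over the 44 genes with counts, and 8 of the 45 were too low for the filtered test. With 1 library left out, the test called 3 of the 45 without knockout replicate 1 (6.5% of all genes were higher), 6 without knockout replicate 2 (15.2%) and 3 without control replicate 2 (7.46%). It called 0 without control replicate 1 (3.09% of all genes), where 4 had an unadjusted p under 0.05.

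Pole2, an accessory subunit of polymerase epsilon, had 304 and 91.0 CPM downstream in knockouts, against 12.5 and 21.5 CPM in controls (log2 fold 3.52 ± 0.61, edgeR adjusted p = 0.0012). Pcna had 252 and 103 CPM in knockouts, against 14.9 and 21.5 CPM in controls (3.26 ± 0.52, edgeR adjusted p = 0.000843). Pold1 had 172 and 92.3 CPM in knockouts, against 48.5 and 35.1 CPM in controls (1.64 ± 0.43, edgeR adjusted p = 0.016). These 3 windows each hold the start of another gene: Dnaaf2 and 9330151L19Rik beside Pole2, Tmem230 beside Pcna and Spib, an ETS factor of blood cells, beside Pold1. Of all tested downstream windows that hold another start 43.3% were higher, against 4.71% of those that hold none. Orc1, whose downstream window holds no other start, had 74.6 and 36.9 CPM in knockouts, against 14.1 and 25.5 CPM in controls (1.46 ± 0.43, edgeR adjusted p = 0.0332), a call lost with library totals (adjusted p = 0.0677), receptor scaling (0.0631), DESeq2's Wald test (0.129) and no filter (0.0812). The densest downstream windows in controls were those of Orc5 and Prim2, at 15.4 and 14.7 CPM per kb, and neither passed, with log2 folds of -0.48 ± 0.36 and -0.18 ± 0.38.

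Windows wholly shared with the same kind of window of another gene held few counts. Of 542 downstream windows that are wholly shared in this way 91.9% were at 0 in all 4 libraries, as were 90.0% of 429 wholly shared upstream windows. Windows shared in part held more: the median control count was 22.5 upstream and 23.5 downstream where up to 50% was shared and 7.5 in both where more was, beside 35.5 and 41.5 where none was. The window downstream of Cdt1 is wholly shared and was at 0 in each library, and those of Mcm10, Rfc4, Gmnn and Mcm7 are shared over 99.5%, 98.5%, 95% and 85.2% of their bases and held at most 7 counts in any library. The mark downstream of these 5 genes was therefore barely measured.

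The share of H3K14ac in the upstream window is free of scaling between libraries, since it is taken within each library. Summed over the 45 genes, 23.8% and 15.7% of the counts in knockouts were upstream, against 7.81% and 9.38% in controls, a difference of 11.2 percentage points between means of 19.8 ± 5.71% and 8.60 ± 1.11% (SD, n = 2 each; exact two-sided permutation p = 0.333). This p is the smallest that 6 assignments of 4 libraries allow. The gene body share was 67.0% and 72.8% in knockouts, against 80.3% and 78.6% in controls (difference -9.55 points, exact permutation p = 0.333), and the downstream share was 9.19% and 11.4%, against 11.9% and 12.0% (difference -1.62 points, exact permutation p = 0.333). Over all genes the upstream share was 16.5% and 11.4% in knockouts, against 7.86% and 8.43% in controls, a difference of 5.79 points. The downstream difference over all genes was 1.31 points, of the opposite sign to that of the replication genes. Each 95% Wilson interval of the upstream shares of the 45 genes was within 1 percentage point of its value, and these intervals cover counting error only, since PCR copies are not independent molecules. The Prim2 body held 20.6% and 27.5% of the gene body counts of the 45 genes in knockouts, against 48.8% and 37.7% in controls. Without Prim2 the upstream share was 27.1% and 19.4% in knockouts, against 12.7% and 13.2% in controls, a difference of 10.3 points, and the gene body and downstream differences were -5.16 and -5.14 points. The median over genes of the upstream share, in which each gene weighs the same, was 25.1% and 18.9% in knockouts, against 17.5% and 16.8% in controls, a difference of 4.88 points. The same median differed by -0.919 points for gene bodies and -8.67 points downstream. The sizes of these differences therefore depend on how the genes are weighted. The 45 genes took 0.175% and 0.132% of all counts in knockouts, against 0.0712% and 0.0888% in controls.

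**Figure D5:**
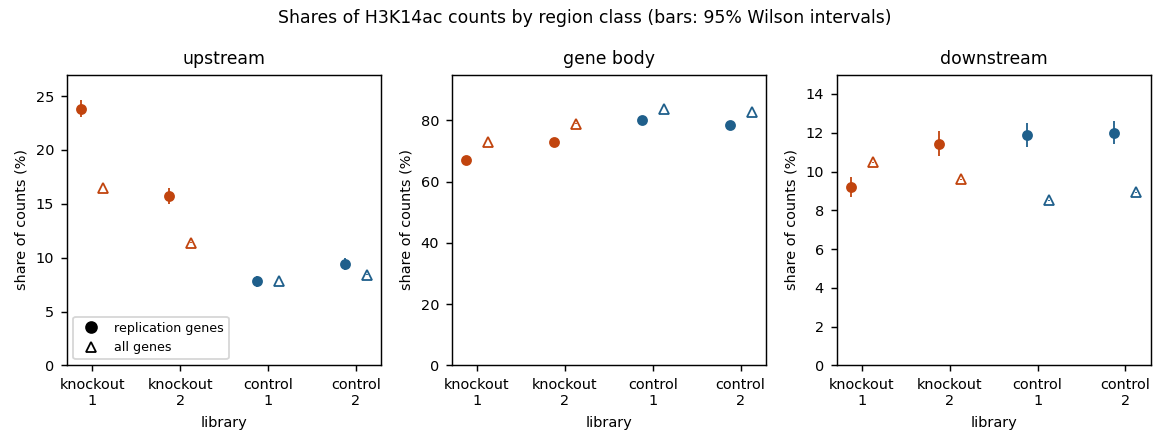
Share of H3K14ac counts in the upstream window, the gene body and the downstream window, in percent, by library, summed over 45 replication genes (filled circles) and over all genes (open triangles), with 95% Wilson intervals (orange, knockout; blue, control). The upstream share of the replication genes was 23.8% and 15.7% in knockouts and 7.81% and 9.38% in controls.

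Another 41 genes of replication, its checkpoints, nucleotide supply and chromatin assembly were listed apart from the 45. Upstream 21 of them were higher and 0 lower, over gene bodies 23 and 0, and downstream 5 and 0, by edgeR at an adjusted p under 0.05. Of all genes 24%, 23.1% and 10.8% were higher in these regions, so the downstream count, 5 of 36 tested, was near the background. Supt16, a subunit of the histone chaperone FACT, had 70.5 and 45.4 CPM upstream in knockouts, against 9.55 and 12.4 CPM in controls (log2 fold 2.38 ± 0.50, edgeR adjusted p = 3.49e-05). Clspn, which encodes the checkpoint mediator claspin, had 109 and 36.6 CPM upstream in knockouts, against 9.55 and 23.2 CPM in controls (2.14 ± 0.49, edgeR adjusted p = 0.000159). Mcmbp, a binding partner of the MCM proteins, rose upstream by a log2 fold of 2.51 ± 0.56. Over their bodies Clspn and Mcmbp did not pass, with log2 folds of 0.70 and 0.68 (edgeR adjusted p = 0.135 and 0.106). Over gene bodies Pold4, the small subunit of polymerase delta, had 9.06 and 3.88 CPM in knockouts, against 0.593 and 0.0990 CPM in controls (4.15 ± 0.69, edgeR adjusted p = 2.52e-06), and Ssrp1, the partner of SUPT16, had a log2 fold of 1.89 ± 0.41, beside one of -0.23 upstream that did not pass (edgeR adjusted p = 0.704). Downstream the genes called were Dscc1, Cdk2, Mcm8, Donson and Pole3. Of the 41, 3 genes upstream, 3 over gene bodies and 1 downstream passed the filter through the knockouts, since both controls lay under it. Mcmbp upstream, Pold4 over its body and Donson downstream were such genes, so their calls add no support.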

How the data were processed

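H3K14ac was measured by CUT&Tag in 2 knockout and 2 control libraries. The authors deposited read counts, whole numbers for each Entrez gene, in 3 tables by region: 5 kb upstream of the start, gene body, and 5 kb downstream of the end, per the file headers. The submitters' processing notes name featureCounts and mm10; aligner, read filters and duplicate handling are not given in the sources used here. Tables of the series and files of single libraries differed at 0 values over 27179 genes. Symbols (25275 genes, 93.0%), positions and promoters came from RefSeq tables of GRCm38.p6; 84.1% of genes had a deposited length within 1% of their RefSeq span.

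Each region class was fitted across all its genes with edgeR 4.0.16 (filterByExpr, minimum count 10, minimum total 15; TMM; quasi-likelihood F-test; no covariate) in R 4.3.3, with Benjamini-Hochberg adjustment at 0.05. The standard error is the log2 fold divided by the square root of F. CPM values are TMM scaled. The step was tested on simulated counts. For shares the test was an exact permutation, two-sided, of the 6 ways to assign 4 libraries. Alternatives were library totals, DESeq2 1.42.0 size factors and its Wald test, pooled totals, scaling on 1479 receptor genes, a mean count of at least 50 or no filter at all, a GC correction (loess span 0.3), windows without another start, leaving out each library, and a block for the replicate number; a crossed block was added after seeing the data. Tables were made in pandas 2.3.3 and numpy 2.4.6 under Python 3.11.15, permutations in scipy 1.17.1 and plots in matplotlib 3.10.9.

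The genes, the lists and the tests were chosen with earlier results of these data known. All 45 genes could be named; values by library are given for up to 2 genes a role with the smallest p in a region class and for those at the ends of the control order, and further genes are named where a sentence turns on them. The printed promoters are those of the 4 called genes with the smallest upstream p and of the 2 genes with the largest, among the genes in the promoter table.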

Additional observations from a re-analysis of the deposited data

How the results depend on the processing

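With 2 libraries a group, the calls rest on each library, and shallow windows (a median mean count of 29.5 upstream) limit what single genes can show. Leaving out 1 library at a time, the test called 0 to 9 genes in upstream windows, 4 to 31 in gene bodies and 0 to 6 in downstream windows. Upstream, pooled totals called 35, beside 33.1% of all genes. A mean count of at least 50 left 8 genes to test and called 8, beside 31.9% of all genes; no control count of these 8 was over 50, so they met the filter through their knockouts and the count supports nothing. The other settings without a block gave counts within 1.5 times of 23, 24 and 4, DESeq2's Wald test among them (18, 22 and 3). The log2 fold of the called genes stayed positive under each setting in each region class.

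With the replicate number as a block the test called 14 upstream, 10 over gene bodies and 4 downstream, beside 15%, 13.1% and 9.73% of all genes called higher. The labels do not say that equal numbers pair libraries, and the deviations of equally numbered libraries had correlations of -0.28 upstream, -0.37 over gene bodies and -0.22 downstream. A crossed pairing, chosen after seeing the data, called 28, 33 and 5, beside 27.8%, 30.4% and 15.4% of all genes.

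Some genes that were not called changed the sign of their log2 fold, and the cause was not tested. Upstream, Gins3 turned to 0.046 (pooled totals) and 0.44 (receptor scaling), Pold2 to 0.44 and 0.82 under the same settings, and Rfc2 to -0.019 (library totals). Over gene bodies, Prim2 turned to 0.030 (library totals) and 0.34 (receptor scaling), and Pold2 to -0.22 (GC correction). Downstream, the GC correction gave -0.15 for Cdc6, -0.063 for Rfc2 and -0.37 for Pold2. Receptor scaling gave 0.12 for Prim2 and 0.10 for Pole, a mean count of at least 50 gave 0.10 for Prim2, and library totals gave -0.043 for Pold3 and -0.081 for Lig1. Leaving out 1 library gave ranges that cross 0 for these uncalled genes. Upstream they ran from -0.87 to 0.050 for Gins3 and from -0.40 to 0.31 for Pold2, and over gene bodies from -0.036 to 0.20 for Mcm3. Downstream they ran from -0.045 to 0.81 for Mcm4, from -0.081 to 0.98 for Mcm5, from -1.35 to 0.13 for Gins1, from -0.45 to 0.95 for Gins4, from -0.25 to 0.87 for Rfc2, from -0.37 to 1.92 for Prim1, from -0.65 to 0.18 for Prim2, from -0.15 to 0.51 for Pold3, from -0.0047 to 0.49 for Rpa1 and from -0.073 to 0.33 for Lig1.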
